A study of Sorghum bicolor with 12 samples.

Results

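In sorghum leaves, 58 transcripts stood more than 5 above control on the log2 scale in all 3 heat replicates and less than 1 above control, on average, in drought. They were chosen by a rule on the deposited log2 values, in which each treated array was compared with its equally numbered control array. The heat ratio had to be above 5 in all 3 replicates, the mean ratio above 1 in combined heat and drought stress and below 1 in drought, with every spot of the probe well above background on the 3 heat arrays. Of 28785 probes on the array, 124 had a heat ratio above 5 in all 3 replicates, and the other 66 of these failed the drought condition alone. Combined-stress plants were left without water for 3 days and then kept at 50°C for 3 h, heat plants were watered and kept at 50°C for 3 h, drought plants were left without water for 3 days and kept at 28°C for 3 h, and control plants were watered and kept at 28°C for 3 h. All plants were Sorghum bicolor seedlings of the R16 variety, 14 days old when watering stopped, and all incubations took place in the dark. The youngest 3 leaves were pooled within a treatment, RNA was labelled with 1 dye, and there were 3 arrays per treatment from experiments run in triplicate. Since leaves were pooled, fewer cells of a type and less RNA per cell cannot be told apart.

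Proteins unfold and aggregate in hot cells, and plants respond within minutes by transcribing genes for chaperones, the proteins that hold, refold or take apart misfolded proteins. Heat shock factors switch these genes on, small heat shock proteins bind unfolding proteins, HSP70 with its DNAJ partners and HSP90 fold them, and HSP101 pulls proteins out of aggregates. Drought, in contrast, is best known for raising late embryogenesis abundant (LEA) proteins and enzymes of osmolyte synthesis, mainly through the hormone abscisic acid.

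A value is given below as log2 of the processed spot signal minus the 75th percentile of its array, and a ratio is the difference of 2 such values, so that a ratio of 5 stands for a 32-fold change. The median signal ranged from 222 to 298 on the combined arrays, 365 to 434 on the heat arrays, 448 to 512 on the drought arrays and 413 to 542 on the control arrays, and no spot was saturated. The 12 arrays lay on 3 slides with 1 array of each treatment. By the methods each replicate was also a separate experiment. The replicate number thus marks slide and experiment together, and the 2 cannot be told apart. With 3 arrays per treatment, the precision of each difference is limited by their number. Of 9 transcripts named as leaf markers, among them the small subunit of Rubisco, a light-harvesting protein and carbonic anhydrase, 7 were well above background on all 12 arrays, and PPDK and an NADP-malic enzyme were on 7 and 8. All 9 could be named only because the authors listed them as changed in drought or heat on these arrays. Their summed signal is therefore not a check of leaf content. One of the 9, RCA, is itself in the set. The log2 of the summed signal of the other 8 lay between 5.51 and 5.73 in combined stress, 4.90 and 5.65 in heat, 3.98 and 4.54 in drought and 4.17 and 5.46 in control.

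By annotation, 17 of the 58 transcripts were chaperones, with 9 small heat shock proteins, 5 members of the HSP70, HSP90 and HSP100 families and 3 co-chaperones or folding helpers. A further 7 were regulators, 3 belonged to redox control or organelles, 5 to lipid, hormone or cell wall metabolism, 1 to sugar transport and 8 to other annotated classes, and 17 were unknown or had no annotation. Since the rule used the ratios to control, these are described and not tested. On all 3 heat arrays, all 58 lay above every drought and control array, against a background of 18.6% of the 22716 probes tested. On the combined arrays 57 did, against 13.9% of probes, and the exception was the unknown protein Sb10g025830.1. The mean log2 ratio over the 58 had a median of 7.06 in combined stress (range 3.79 to 13.58), 6.60 in heat (5.22 to 11.46) and 0.18 in drought (-1.62 to 0.95). The medians over all probes tested were -0.08, -0.10 and -0.11. Both ends of the combined and heat ranges belong to transcripts, MYB3R-4 and HSP101, that only 1 of 3 control arrays measured above background. In control, 36 of the 58 gave signals well above background on each of the 3 arrays, and for these combined stress gave between 14.6-fold and 6163-fold (median 146-fold) and heat between 42.5-fold and 1832-fold (median 121-fold). Of the other 22, 4 were measured on 1 control array, 1 on 2 and 17 on none, and for the 17 only a lower bound on the change is known. The bound sets the mean treated value against the higher of the dimmest detected signal and the probe's own signal on each control array, and it ran from 7.07-fold to 851-fold in combined stress and from 12.9-fold to 160-fold in heat.

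**Figure D1:**
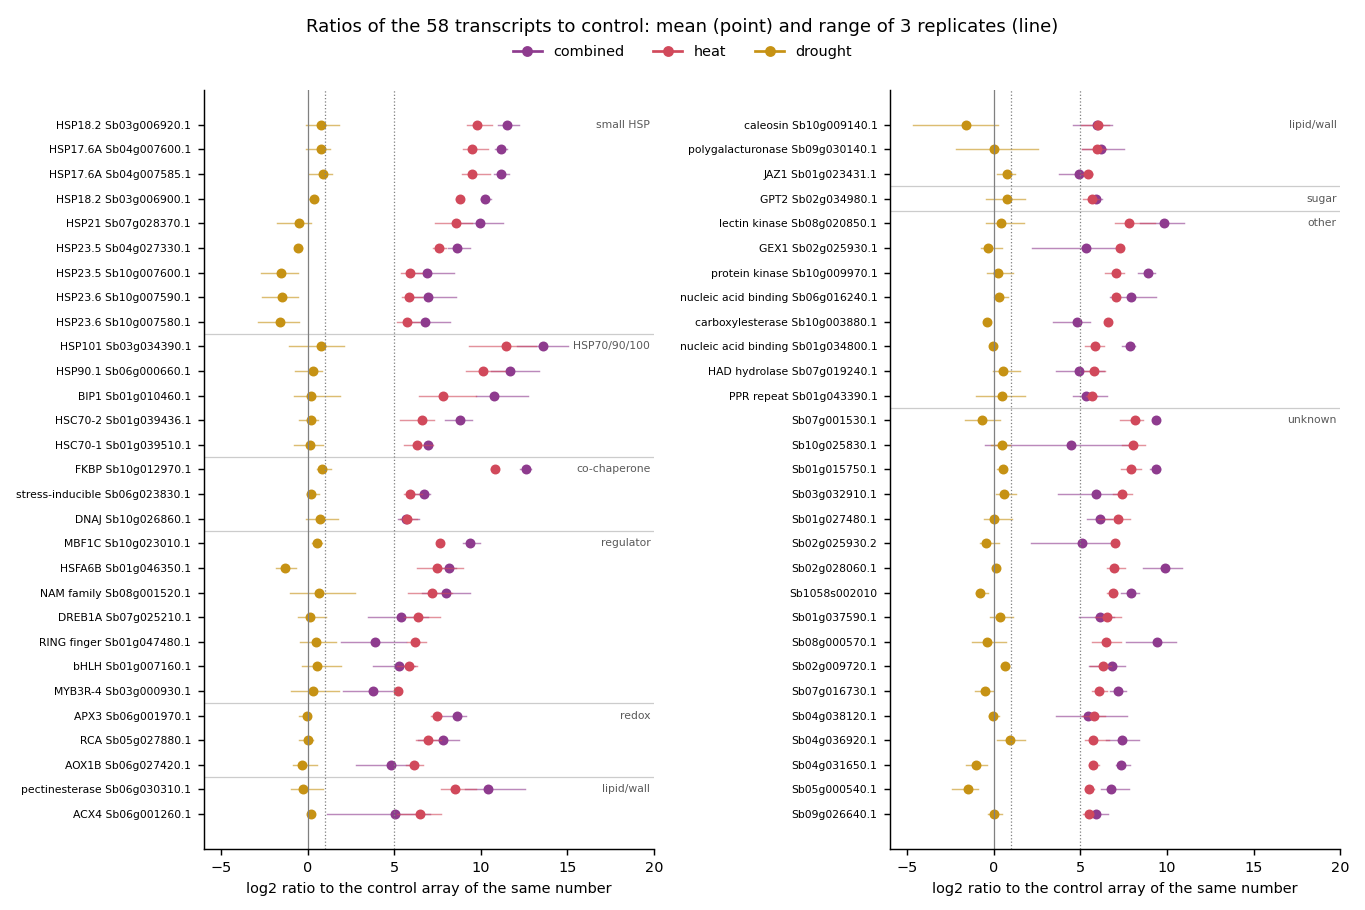
Log2 ratio to the control array of the same number for each of the 58 transcripts, by annotation class, with the mean as a point and the range of 3 replicates as a line. Dotted lines mark the ratios of 1 and 5 used by the rule. Heat means lie between 5.22 and 11.46, drought means between -1.62 and 0.95, and combined means between 3.79 and 13.58.

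The small heat shock proteins held 4 transcripts named HSP18.2 or HSP17.6A, 1 chloroplast form and 4 mitochondrial forms, and each was higher on all combined and heat arrays than on any drought or control array. HSP18.2 (Sb03g006920.1) stood at 7.78, 6.96 and 8.26 in combined stress, 5.62, 5.48 and 6.69 in heat, -3.71, -3.45 and -2.16 in drought and -3.61, -4.06 and -3.94 in control. Its log2 ratio was 11.54 ± 0.61 in combined stress, 9.80 ± 0.74 in heat and 0.77 ± 0.95 in drought (SD, n = 3). The 3 combined arrays lay above the 3 heat arrays, while drought and control overlapped. A neighbouring HSP18.2 (Sb03g006900.1) had log2 ratios of 10.25 ± 0.32 in combined stress, 8.80 ± 0.21 in heat and 0.38 ± 0.25 in drought (SD, n = 3). For 2 HSP17.6A transcripts (Sb04g007585.1 and Sb04g007600.1), the combined ratio was 11.17 for each, the heat ratios were 9.48 and 9.52 and the drought ratios 0.91 and 0.80. Neighbouring copies such as these may share labelled RNA on their probes, which was not tested.

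HSP21 (Sb07g028370.1), which protects chloroplasts in Arabidopsis, stood at 8.40, 7.88 and 8.69 in combined stress, 6.59, 6.81 and 7.45 in heat, -2.77, -1.83 and -1.68 in drought and -2.89, -2.06 and 0.11 in control. The control array of replicate 3 was thus above the other control arrays and every drought array, and the drought ratio of HSP21 was 0.12, 0.22 and -1.78 in replicates 1, 2 and 3. A mitochondrial form, HSP23.5 (Sb04g027330.1), had log2 ratios of 8.61 ± 0.67 in combined stress, 7.58 ± 0.38 in heat and -0.56 ± 0.20 in drought (SD, n = 3). Its drought arrays were below the control array of the same number in all 3 replicates.

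The other 3 mitochondrial forms are neighbours on chromosome 10 and were the small heat shock proteins with the smallest heat ratios in the set. HSP23.5 (Sb10g007600.1) stood at 6.65, 4.49 and 6.01 in combined stress, 4.79, 4.16 and 5.15 in heat, -3.06, -1.83 and -3.21 in drought and -1.81, -1.25 and -0.50 in control. With HSP23.6 (Sb10g007590.1 and Sb10g007580.1), the mean ratios lay between 6.77 and 6.95 in combined stress, between 5.75 and 5.89 in heat and between -1.57 and -1.49 in drought. Every drought array of the 3 transcripts was below the control array of its replicate number. Another neighbour, Sb10g007570.1, had a lowest heat ratio of 2.50 and was left out by the rule.

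**Figure D2:**
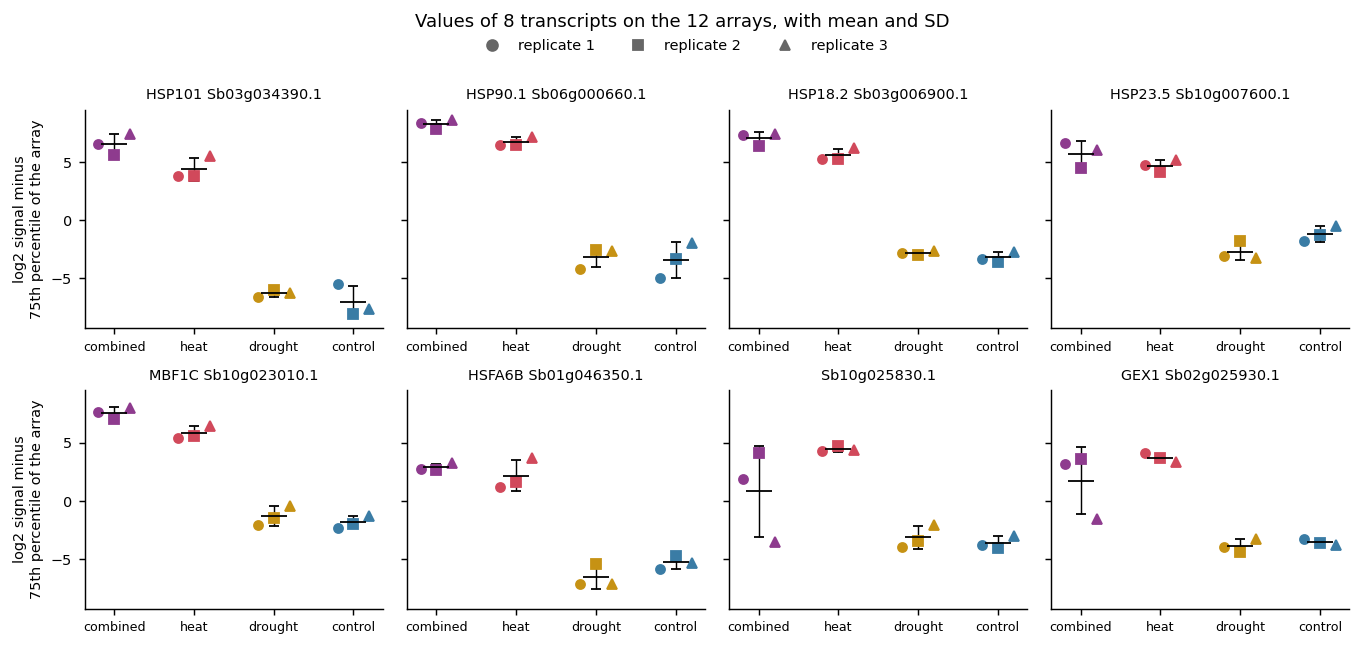
Values of 8 of the 58 transcripts on all 12 arrays, as log2 signal minus the 75th percentile of the array, with a marker for each replicate and bars for the mean and SD of 3 arrays. The 6 transcripts of the chaperone response sit high on all combined and heat arrays, whereas Sb10g025830.1 and GEX1 are low on combined replicate 3, at -3.49 and -1.55.

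Among the large chaperones, HSP101 (Sb03g034390.1), the disaggregase needed for acquired thermotolerance in Arabidopsis, stood at 6.58, 5.60 and 7.41 in combined stress, 3.85, 3.82 and 5.55 in heat, -6.58, -5.97 and -6.28 in drought and -5.50, -8.05 and -7.62 in control. The log2 ratio was 13.58 ± 1.48 in combined stress and 11.46 ± 1.94 in heat (SD, n = 3), with only 1 control array above background, so that the size of these ratios is uncertain. The same holds for its drought ratio of -1.08, 2.08 and 1.34 in replicates 1, 2 and 3 (mean 0.78), with all 3 drought arrays above background. Its place below the drought limit is therefore uncertain too. HSP90.1 (Sb06g000660.1), a cytosolic HSP90, had ratios of 11.71 ± 1.45 in combined stress, 10.15 ± 1.16 in heat and 0.31 ± 0.89 in drought (SD, n = 3), and its control arrays spread from -4.99 to -1.95.

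The HSP70 family was represented by BIP1, the form of the endoplasmic reticulum, and by HSC70-1 and HSC70-2, forms of the cytosol. BIP1 (Sb01g010460.1) stood at 2.59, 1.89 and 3.92 in combined stress and at -0.69, -0.79 and 0.93 in heat, with a drought range of -8.53 to -6.91 and a control range of -8.81 to -7.13. Since no control array was well above background, BIP1 exceeded control at least 851-fold in combined stress and at least 107.5-fold in heat. HSC70-2 (Sb01g039436.1) had a combined ratio of 8.80 ± 0.79 and a heat ratio of 6.59 ± 1.08 (SD, n = 3), and HSC70-1 (Sb01g039510.1), below background in control, exceeded it at least 57.0-fold in combined stress and at least 36.7-fold in heat. Of 18 HSP70 transcripts that could be joined to a name, 3 were in the set, and the heat ratios of the others lay between 2.16 and 5.92.

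The largest co-chaperone response was that of an FK506-binding peptidyl-prolyl isomerase (Sb10g012970.1), an enzyme type that turns proline bonds during folding. It stood at 7.28, 6.63 and 7.83 in combined stress, 4.99, 5.34 and 6.16 in heat, -5.04, -4.30 and -4.22 in drought and -5.62, -5.63 and -4.77 in control. Its ratios of 12.59 ± 0.32 in combined stress, 10.84 ± 0.20 in heat and 0.82 ± 0.44 in drought (SD, n = 3) varied less between replicates than those of HSP101 or HSP90.1. In fold terms these were 6163-fold and 1832-fold, the largest among the 36 transcripts with all control arrays above background. The putative stress-inducible protein Sb06g023830.1, a name used for the Hop proteins that link HSP70 to HSP90, reached 105-fold in combined stress and 61.5-fold in heat. A DNAJ protein (Sb10g026860.1) had ratios of 5.70 ± 0.63 and 5.76 ± 0.50 in the same treatments (SD, n = 3), with 2 of the 3 control arrays above background.

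The 7 regulators did not share a pattern in combined stress. MBF1C (Sb10g023010.1), a coactivator needed for heat tolerance in Arabidopsis, stood at 7.63, 7.04 and 8.03 in combined stress, 5.44, 5.58 and 6.50 in heat, -2.04, -1.45 and -0.40 in drought and -2.30, -1.93 and -1.25 in control. Its ratio was 9.40 ± 0.49 in combined stress, 7.67 ± 0.14 in heat and 0.53 ± 0.29 in drought (SD, n = 3), and the combined arrays lay above the heat arrays. The heat shock factor HSFA6B (Sb01g046350.1) stood at 2.78, 2.67 and 3.26 in combined stress, 1.23, 1.60 and 3.69 in heat, -7.13, -5.40 and -7.14 in drought and -5.82, -4.70 and -5.30 in control, so that the combined and heat arrays overlapped. Its drought ratio was -1.28 ± 0.57 (SD, n = 3), below 0 in 3 of 3 replicates, with 2 of the 3 drought arrays above background. Another transcript annotated HSFA6B (Sb01g021490.1) was outside the set, with a lowest heat ratio of 4.11. Its drought ratio was 0.75 ± 0.70 (SD, n = 3), so the values of Sb01g046350.1 do not stand for every HSFA6B transcript.

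The other 5 regulators were lowest on replicate 3 among the combined arrays. A NAM family factor (Sb08g001520.1) stood at 1.70, 1.39 and -1.84 in combined stress and -0.54, 0.36 and -0.99 in heat, with 1 of the 3 control arrays above background. DREB1A (Sb07g025210.1), named for the binding of dehydration response elements, stood at 1.20, 1.02 and -0.86 in combined stress and 0.97, 1.72 and 1.56 in heat, and its drought ratio was 0.16 ± 0.82 (SD, n = 3). A RING zinc finger protein (Sb01g047480.1), of a type that often marks proteins for breakdown, stood at 0.85, 1.99 and -2.23 in combined stress and 2.62, 3.14 and 1.93 in heat. MYB3R-4 (Sb03g000930.1), of a family that controls cell division, stood at -2.49, -2.36 and -4.88 in combined stress and -1.49, -2.14 and -1.81 in heat, and 1 of its 3 control arrays was above background. A bHLH factor (Sb01g007160.1) was below background on all control arrays, and its lower bounds were 11.2-fold in combined stress and 16.7-fold in heat.

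APX3 (Sb06g001970.1), an ascorbate peroxidase that removes hydrogen peroxide, had ratios of 8.64 ± 0.78 in combined stress, 7.48 ± 0.31 in heat and -0.06 ± 0.37 in drought (SD, n = 3). RCA (Sb05g027880.1), the activase that frees Rubisco of inhibitors, stood at 5.73, 5.53 and 5.22 in combined stress, 4.31, 4.45 and 5.11 in heat, -2.35, -3.02 and -1.63 in drought and -2.68, -3.23 and -1.16 in control. The alternative oxidase AOX1B (Sb06g027420.1), which lets mitochondrial electrons bypass part of the respiratory chain, had a heat ratio of 6.17 ± 0.48 and a combined ratio of 4.82 ± 1.77 (SD, n = 3). All 3 were detected on every array, and relative to control APX3 was 398-fold in combined stress and 178-fold in heat, RCA 230-fold and 126-fold and AOX1B 28.3-fold and 71.9-fold.

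In the lipid, hormone and wall class, a pectinesterase (Sb06g030310.1), which alters cell wall pectin, had ratios of 10.43 ± 1.88 in combined stress and 8.49 ± 1.10 in heat (SD, n = 3). ACX4 (Sb06g001260.1), an acyl-CoA oxidase of fatty acid breakdown, stood at -2.06, -2.0 and -6.07 in combined stress and at -2.42, -1.27 and -2.02 in heat, and no control array was above background. JAZ1 (Sb01g023431.1), a repressor of jasmonate responses, had a heat ratio of 5.41 ± 0.35 and a combined ratio of 4.89 ± 1.02 (SD, n = 3), and a polygalacturonase (Sb09g030140.1) exceeded control at least 27.3-fold in combined stress and at least 23.8-fold in heat. A caleosin (Sb10g009140.1), a protein of oil bodies, reached 61.9-fold in combined stress and 65.5-fold in heat. Its drought arrays stood at -4.87, -6.15 and -9.06 and its control arrays at -5.09, -5.77 and -4.37, so that the low drought mean of -1.62 came from replicate 3, where the probe was not well above background. GPT2 (Sb02g034980.1), which moves glucose-6-phosphate into plastids, was 59.6-fold higher in combined stress and 51.5-fold higher in heat.

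Among the 8 other annotated transcripts, the lectin kinase Sb08g020850.1 exceeded control at least 317-fold in combined stress and at least 79.5-fold in heat, and the protein kinase Sb10g009970.1 at least 143-fold and at least 39.8-fold. GEX1 (Sb02g025930.1), named for its expression in Arabidopsis gametes, was well above background on all 12 leaf arrays. It stood at 3.16, 3.65 and -1.55 in combined stress, 4.11, 3.67 and 3.39 in heat, -3.92, -4.40 and -3.26 in drought and -3.25, -3.63 and -3.76 in control. A second transcript of the same gene (Sb02g025930.2) gave combined values of 1.96, 2.42 and -2.57 and heat values of 2.96, 2.52 and 2.10, and the pair is 1 gene and not 2 independent observations. Of the remaining 5, the carboxylesterase Sb10g003880.1 and the nucleic acid binding protein Sb01g034800.1 had control levels above background, and reached 27.6-fold and 236-fold in combined stress and 97.5-fold and 56.9-fold in heat. For another nucleic acid binding protein, a dehalogenase-like hydrolase and a pentatricopeptide repeat protein there were only bounds, of 7.07-fold to 59.1-fold in combined stress and 12.9-fold to 32.6-fold in heat.

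Of the 17 unknown or unannotated transcripts, 9 had control signals above background on all 3 arrays, with changes of 21.6-fold to 652-fold in combined stress and 44.6-fold to 265-fold in heat. Sb07g001530.1 exceeded control at least 378-fold in combined stress and at least 160-fold in heat, the largest bound in heat. Sb01g015750.1 had ratios of 9.35 ± 0.30 in combined stress and 7.90 ± 0.57 in heat (SD, n = 3), and its neighbour by identifier, the transcription factor SCL9 (Sb01g015760.1), had a heat ratio of 9.97 and a drought ratio of 3.08. Sb10g025830.1 stood at 1.92, 4.09 and -3.49 in combined stress, 4.28, 4.72 and 4.39 in heat, -3.92, -3.45 and -2.04 in drought and -3.76, -4.03 and -2.98 in control. Its heat arrays lay close together, whereas combined replicate 3 fell inside the range of the control arrays. Sb03g032910.1 stood at 1.20, 0.67 and -1.63 in combined stress and 1.42, 1.75 and 1.57 in heat.

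In drought, 51 of the 58 had a mean ratio between -1 and 1, and the rule set no lower limit. Of the 58, 16 were well above background on no drought array and 17 on no control array. For such transcripts a ratio near 0 does not show that a response was absent. No transcript had a ratio above 1 in all 3 replicates, but 23 had one in at least 1 replicate, 0 of them in replicate 1, 5 in replicate 2 and 21 in replicate 3. Of the 34 transcripts well above background on all drought and control arrays, 11 had such a ratio in at least 1 replicate, 0 in replicate 1, 3 in replicate 2 and 10 in replicate 3. By the rule the mean was below 1 for each transcript, while single replicates could exceed it. The share of all probes with such a ratio was not computed, so these counts are not read as particular to the set. The median drought ratio over the 34 was -0.03, 0.05 and 0.49 in replicates 1, 2 and 3, and the median over 15 LEA and dehydrin transcripts, none of them in the set, was 5.68, 4.86 and 6.88. Both were highest in replicate 3. Of the 34, 9 were above control in all 3 replicates and 6 were below it in all 3, and here too no share over all probes was computed. A mean ratio below -1 was found for 7, namely the 3 neighbouring mitochondrial small heat shock proteins, HSFA6B, the caleosin and the unknown proteins Sb05g000540.1 and Sb04g031650.1, of which the last 2 were not well above background on any drought or control array.

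Whether water loss changed the level reached at 50°C was asked by setting combined stress against heat. The rule did not use this difference, but it used the heat arrays and the combined mean. The combined level was higher than the heat level in all 3 replicates for 32 of the 58 (55.2%) and lower in all 3 for 8, against 28.7% and 28.7% of the probes tested. The arrays of the 2 treatments did not overlap, with combined above heat, for 22 of the 58, against 14.5% of probes, and with combined below heat for 5, against 16.8%. The median difference over the 58 was 0.94 on the log2 scale, and -0.00 over all probes tested. In the limma fit, 7 of the 58 (12.1%) were higher in combined stress at a Benjamini-Hochberg adjusted p under 0.05, against 3.65% of the 22716 probes tested, and 0 were lower, against 1.57%. At an unadjusted p under 0.05 in limma, 26 were higher, against 13.5% of probes, and 4 were lower, against 14.2%.

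The 7 comprise 3 chaperone transcripts, 2 unknown ones, a protein kinase and a nucleic acid binding protein. BIP1 was higher in combined stress than in heat by 3.29, 2.68 and 2.99 in replicates 1, 2 and 3, a mean of 2.99 ± 0.66 (SE, limma adjusted p = 0.032). The FK506-binding isomerase differed by 2.29, 1.30 and 1.66, a mean of 1.75 ± 0.41 (SE, limma adjusted p = 0.038), and HSP18.2 (Sb03g006900.1) by 2.05, 1.12 and 1.19, a mean of 1.45 ± 0.36 (SE, limma adjusted p = 0.045). For each of these 3, all combined arrays were above all heat arrays. Outside the set, another transcript annotated BIP1 (Sb03g041830.1) differed by 0.95 (limma adjusted p = 0.29) and BIP2 (Sb04g001140.1) by 0.23 (limma adjusted p = 0.55). The call thus holds for 1 BIP transcript and not for the others. The unannotated Sb02g028060.1 stood at 0.73, -0.38 and 2.04 in combined stress and -2.85, -2.47 and -1.22 in heat, a difference of 2.97 ± 0.57 (SE, limma adjusted p = 0.020). The unknown protein Sb08g000570.1 stood at 1.36, -0.33 and 2.44 in combined stress and -2.46, -2.30 and -0.70 in heat, a difference of 2.98 ± 0.76 (SE, limma adjusted p = 0.049). The protein kinase Sb10g009970.1 differed by 1.84 ± 0.44 (SE, limma adjusted p = 0.042) and the nucleic acid binding protein Sb01g034800.1, named after its values were seen, by 2.05 ± 0.45 (SE, limma adjusted p = 0.032). In all 7 transcripts combined was above heat in 3 of 3 replicates. Over the alternatives run, their adjusted p had a lowest value between 0.0032 and 0.0196 and a highest value between 0.529 and 0.594, reached without replicate 1.

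**Figure D3:**
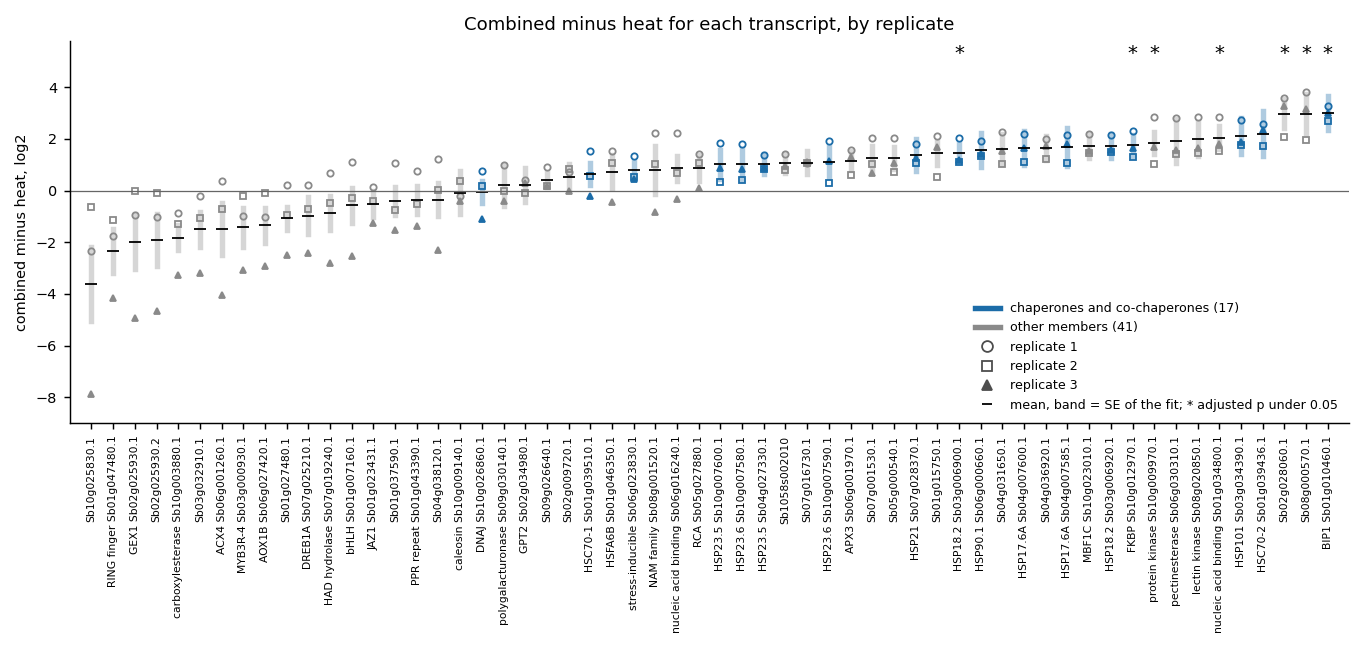
Combined minus heat for each of the 58 transcripts on the log2 scale, sorted by the mean, with a marker per replicate, a dash for the mean, a band for the SE of the limma fit and an asterisk above the 7 with an adjusted p under 0.05. Chaperones and co-chaperones are in blue and lie mostly in the right part of the plot, and replicate 3 is the lowest of the 3 replicates for the transcripts on the left.

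A further fit took the replicate number, and so slide and experiment together, as a block. In it limma called 20 of the 58 (34.5%) higher in combined stress, against 10.4% of probes, and 1 lower, against 7.78%. The 20 hold 8 chaperones, of which 5 are small heat shock proteins, beside MBF1C (limma adjusted p = 0.0043 with the block and 0.054 without), APX3 (0.020 and 0.088) and the pectinesterase (0.039 and 0.17). Over all alternatives the highest adjusted p of these 3 lay between 0.585 and 0.636. The 1 lower was the carboxylesterase Sb10g003880.1, at -1.82 ± 0.48 (SE, limma adjusted p = 0.052 without and 0.025 with the block). The call of each of the 7 depended on which arrays were used. Without replicate 1 none of the 58 was called (2 of all probes), without replicate 3 there was 1 (151 of all probes, 0.658%) and without combined replicate 3 alone there were 0 (220 of all probes, 0.968%), with medians of 0.59, 1.10 and 0.90 over the 58.

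By class, the difference was above 0 for all 9 small heat shock proteins, in all 3 replicates of each, with a median of 1.37 on the log2 scale. It was above 0 for all 5 of HSP70, HSP90 and HSP100 (median 2.12) and for 2 of 3 co-chaperones (0.78). Over these 17, the median was 1.92, 1.08 and 1.25 in replicates 1, 2 and 3, and 15 of the 17 were above heat in all 3 replicates. The exceptions were HSC70-1 and the DNAJ protein, which were below heat in replicate 3. These counts hold neighbouring copies, among them the HSP17.6A pair and the mitochondrial trio, which may not be independent observations. Of the other 41 transcripts, 17 were above heat in all 3 replicates and 8 below, with replicate medians of 1.08, 0.36 and -0.40. The counts of chaperones above 0 were the same under the 4 other scalings and backgrounds, where their median ran from 1.01 to 1.54, while the median of all probes moved to -0.29 with the normexp background. The regulators had a median of -0.58, with MBF1C, the NAM factor and HSFA6B above 0. None of the 7 was called without the block, and MBF1C was called with it. Outside the set, the other HSFA6B transcript (Sb01g021490.1) was called without the block, at 1.76 (limma adjusted p = 0.049).

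The transcripts with the most negative differences were Sb10g025830.1 (-3.62 ± 1.43, limma adjusted p = 0.14), the RING zinc finger protein (-2.36 ± 0.85, limma adjusted p = 0.11) and both GEX1 transcripts (-1.97 ± 1.05 and -1.93 ± 1.01, limma adjusted p = 0.24 each), all with SE. They did not pass the test. Of these differences, that of replicate 3 was the largest in size, at -7.88 for Sb10g025830.1, -4.16 for the RING protein and -4.94 and -4.67 for GEX1, against a range of -2.36 to -0.03 in replicates 1 and 2.

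Replicate 3 of combined stress stood apart for some of the set. On that array, 18 of the 58 (31.0%) were over 1 lower than on the mean of the other 2 combined arrays, against 11.6% of the probes tested. None of the 17 chaperones was among these 18, which hold 5 of the 7 regulators, ACX4, a polygalacturonase, AOX1B, 5 other annotated and 5 unknown transcripts. Of the 17 chaperones, 12 were highest on combined replicate 3 and 1 was lowest, while of the other 41, 13 were highest and 23 lowest, against 40.6% and 34.0% of the probes tested. Over 1 higher on that array were 9 of the 58, against 8.86% of probes. All 17 chaperones were highest on heat replicate 3 as well, against 25 of the other 41 and 33.0% of the probes tested. The 15 LEA and dehydrin transcripts had median combined ratios of 4.91, 4.83 and 5.67 in replicates 1, 2 and 3. The part of water loss, slide, experiment or sampling in these differences between replicates was not tested.

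**Figure D4:**
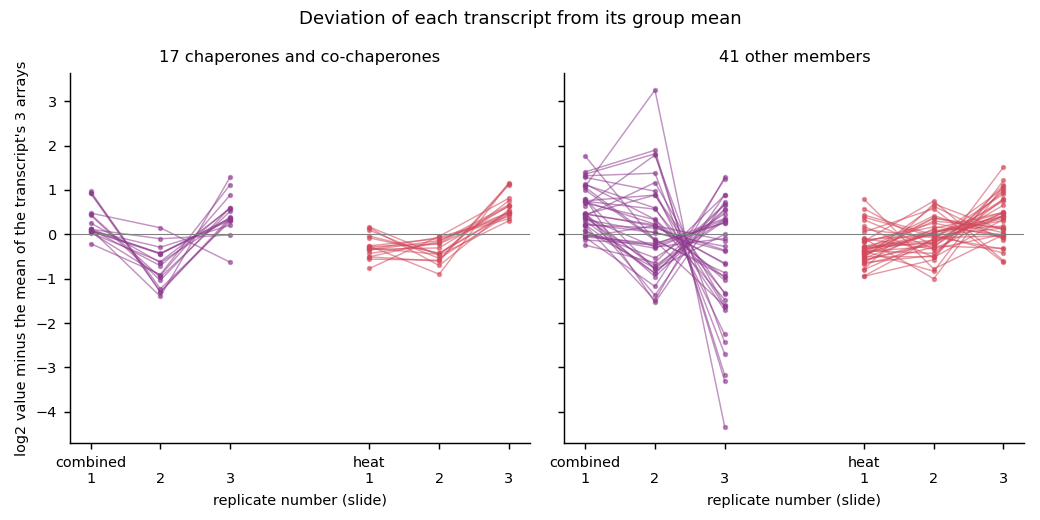
Deviation of each transcript from the mean of its 3 combined arrays and of its 3 heat arrays, on the log2 scale, with a line for each of 17 chaperones and co-chaperones on the left and 41 other members on the right. On heat replicate 3 all 17 chaperones are above their mean, whereas on combined replicate 3 the others spread widely and 18 are over 1 below the mean of replicates 1 and 2.

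Whether water loss acted alike at 50°C and at 28°C was asked with the difference of combined minus heat from drought minus control, a contrast that holds the control and drought arrays used by the rule. limma called 0 of the 58 and 0 of all 22716 probes (0%) at an adjusted p under 0.05. With the replicate block it called 0 of the 58, and 2 higher and 1 lower of all 22716 probes. At an unadjusted p under 0.05 there were 17 of the 58, against 10.8% of probes. Since the rule held the mean drought ratio below 1 with no lower limit, nothing is read from this count or from the sign of the differences. For transcripts below background in drought and control, the contrast rests on unmeasured levels. The 3 neighbouring mitochondrial small heat shock proteins were measured on all 12 arrays and ranged from 2.52 to 2.61 (limma adjusted p from 0.35 to 0.36). Their drought ratios were among the lowest of the set, so nothing is read from this sign either. As neighbouring copies with similar values, they may not be 3 independent observations.

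The drought condition divided the heat-responsive small heat shock proteins. Of 23 joined transcripts of this type, 9 were in the set, 10 had heat ratios above 5 in all replicates and a mean drought ratio of 1 or higher, and 4 had a heat ratio of 5 or lower in at least 1 replicate. HSP22 (Sb06g017850.1), with the largest heat ratio of the 23 (12.33), was outside through its drought ratio of 1.55 ± 1.43 (SD, n = 3, limma adjusted p = 0.095). HSP17.4 of class III (Sb04g035130.1) was outside through one of 3.95 ± 0.96 (SD, n = 3, limma adjusted p = 0.0024). Of the 23, 7 were higher in drought at an adjusted p under 0.05 in limma and a log2 ratio past 1. A place outside the set thus does not by itself mean a drought rise. On chromosome 3, HSP18.2 copies fell on both sides. Sb03g006900.1 and Sb03g006920.1 had drought ratios of 0.38 and 0.77, while their neighbours Sb03g006880.1 and Sb03g006890.1 had 2.04 and 2.0. Since the rule set these sides, the split is a description. In heat the 2 HSP18.2 of the set had ratios of 8.80 and 9.80, and the 2 neighbours had 8.17 and 7.52.

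**Figure D5:**
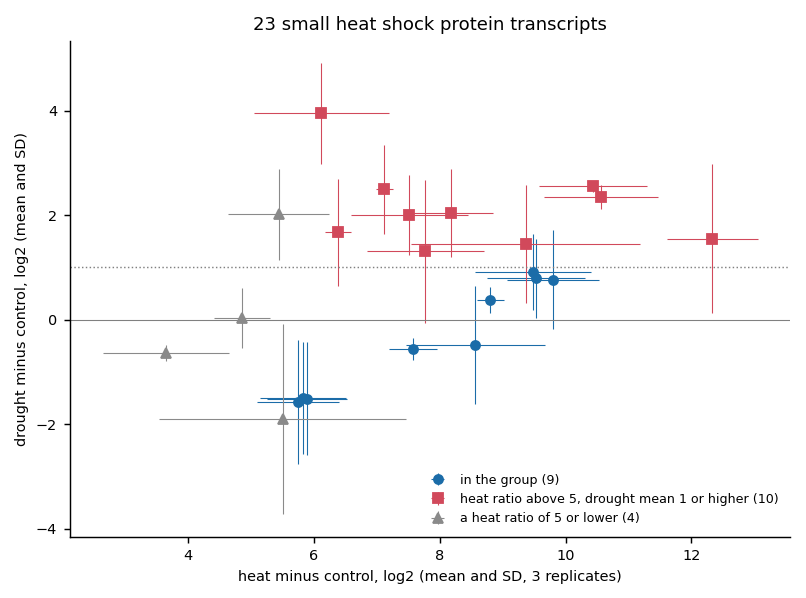
Drought ratio against heat ratio, both on the log2 scale, for 23 small heat shock protein transcripts, with the mean and SD of 3 replicates. Blue points are the 9 in the set, below a drought ratio of 1 (dotted line), with the 3 neighbouring mitochondrial forms between -1.57 and -1.49, and red squares are the 10 with equally steep heat rises and drought means of 1 or higher.

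Compared with the 66 transcripts whose heat ratios were as steep but whose mean drought ratio was 1 or higher, the set held more chaperones by share (17 of 58, against 14 of 66) and more unknown or unannotated transcripts (17, against 7), and fewer other annotated ones (8, against 24). The classes were read from annotation and these shares were not tested. In combined minus heat, limma called 5 of the 66 higher, against 7 of the 58 and 3.65% of probes, and 0 lower, against 1.57% of probes. The median was 0.78, against 0.94 over the 58. Above heat in all 3 replicates were 38 of the 66, against 32 of the 58 and 28.7% of probes. A combined level above heat was thus not particular to the set. The median drought ratio of the 66 was 2.41.

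By identifier, 11 of the 58 lie within 100 numbers of another of the set, in 5 neighbourhoods. These are the pairs of HSP18.2, HSP17.6A and HSC70, the mitochondrial trio and the 2 GEX1 transcripts. The set was spread over all 10 chromosomes, with the most on chromosome 1 (12) and chromosome 10 (10). Between HSC70-2 and HSC70-1 on chromosome 1 lies an HSP70 (Sb01g039470.1) with a heat ratio of 5.88 and a drought ratio of 1.07, just outside the rule.

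The wider heat response was read from 85 chaperone and heat shock factor transcripts that could be joined to names, 19 of them in the set, which are the 17 chaperones, HSFA6B and MBF1C, listed here with the co-chaperones. They come from tables of transcripts that had changed on these same arrays, so their counts are not independent evidence. Calls needed an adjusted p under 0.05 in limma together with a log2 ratio past 1. By this, 78 of the 85 were higher in combined stress, 80 in heat and 10 in drought, against 18.4%, 14.7% and 4.16% of all probes tested. The drought count was 1 without replicate 1 and 3 without replicate 3. The share of all probes in these reduced fits is not given here, so the drop is not read as particular to chaperones. In the full fit, lower calls numbered 2, 0 and 2, against 18.9%, 14.5% and 0.748% of probes. All 23 small heat shock proteins were higher in combined stress and in heat and 7 in drought. All 18 HSP70 transcripts were higher in the same 2 treatments and 0 in drought. Of 10 heat shock factors, 9 were higher in combined stress, 10 in heat and 1 in drought, and HSFA2 (Sb10g022340.1) missed the set with a lowest heat ratio of 4.95. Of 14 DNAJ proteins, 11 were higher in combined stress, 11 in heat and 1 in drought, and the medians over the list were 2.78, 2.85 and 0.47. The 15 LEA and dehydrin transcripts, named from the same tables, differed from this, with 14 higher in combined stress, 5 in heat and 11 in drought.

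The threshold of 5 fell in a dense range of values. The transcripts just inside were the caleosin, with a lowest heat ratio of 5.01, JAZ1 (5.02), the polygalacturonase (5.09), MYB3R-4 (5.11) and the unknown protein Sb04g038120.1 (5.12), of which the polygalacturonase and the last had no control array above background. Just outside were a PHD finger protein (Sb05g007460.1, 4.97), the PEP carboxylase kinase PPCK1 (Sb06g022690.1, 4.96), HSFA2 (4.95), Sb01g026780.1 (4.91) and Sb06g018890.1 (4.90). For the drought condition, Sb04g036920.1 lay just inside with a mean ratio of 0.95 and a protein phosphatase 2C (Sb04g031580.1) just outside with 1.01.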

How the data were processed

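The authors hybridized leaf RNA to Agilent 1-colour arrays and deposited spot intensities (processed signal, median signal and local background) with flags for spots above background and outliers, and also a table of normalized log2 values, which served for the rule. This table matched the processed signals scaled to the 75th percentile and centred per probe. Centring leaves ratios unchanged.

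Here log2 of the processed signal minus the array's 75th percentile over non-control spots was used, without outlier spots, and spots of a probe were averaged. limma 3.58.1 in R 4.3.3 fitted 4 group means over 12 arrays to the 22716 probes well above background on every array of some group, and p-values were adjusted over all of these by Benjamini-Hochberg. Other steps used python 3.11.15. The fit was tested on simulated data. Same-numbered arrays shared a slide and an experiment. Their deviations correlated above 0.1 in 17 of 18 pairs (0.04 to 0.62), so a fit with the replicate block was run too. Sb identifiers and annotation were joined by matching the fold changes in supplementary tables to deposited ratios within 2e-05, for 2971 probes and all 58 of the set. These tables also hold the authors' fold columns, which served only as that key.

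The transcripts were chosen with earlier results of these data known, and so were the lists. Named were all chaperones and regulators of the set, the 10 largest heat ratios, the extremes of combined minus heat, those at the threshold and up to 4 of each other class. Promoter and protein sequences were not analysed here.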

Additional observations from a re-analysis of the deposited data

How the results depend on the processing

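The 4 alternative scalings and backgrounds, 2 detection filters and the replicate block left the median of combined minus heat over the 58 between 0.64 and 1.02, against 0.94. The count of the 58 higher in combined stress, with the share of all probes, was 7 with the deposited values (3.62%) and 7 with the 75th percentile over detected probes (3.48%), 5 with normexp (0.99%), 4 with quantile normalization (3.5%), 3 without a detection filter (1.95%), 3 of 34 among probes detected on all arrays (3.65%) and 20 with the replicate block (10.4%). The count lower was 1 with the 75th percentile over detected probes (427 of all 22716 probes). It was also 1 on probes detected on all arrays (355 of 19349) and with the replicate block (1768 of 22716). It was 0 under the rest of these alternatives. Leaving out a replicate gave between 0 and 10 higher, with shares of all probes of 0.00877% without replicate 1, 6.82% without replicate 2 and 0.658% without replicate 3, and 0 lower. Leaving out combined replicate 3 alone, chosen after seeing the data, gave 0 higher (0.968%). The cause was not tested. The interaction was called for 0 of the 58 under each alternative, the replicate block included. Over all probes the calls were few as well, so this 0 is not particular to the set. They were 2 higher and 1 lower with the block, 3 lower with quantile normalization and 2 higher without combined replicate 3. With normexp the median ratios over the 58 were 6.0 in combined stress and 5.57 in heat, and without one replicate the heat median ran from 6.60 to 6.85. The drought median ran from -0.048 to 0.32 when a replicate was left out, and was -0.048 without replicate 3.

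A heat ratio above 4 gave 129 transcripts and above 6 gave 28. Among the chaperone lists, 1 to 11 of 85 were called higher in drought without one replicate, with 1 without replicate 1 and 3 without replicate 3, against 10 in the full fit. The shares of all probes in these drought fits are not given here, so these counts are not read as particular to the lists.

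For single transcripts, combined minus heat turned positive without replicate 3 for Sb01g037590.1 (0.16, and 0.12 without combined replicate 3; lowest -1.15), the caleosin Sb10g009140.1 (0.085 and 0.24; lowest -0.30), the bHLH factor Sb01g007160.1 (0.41 and 0.16; lowest -1.41), Sb04g038120.1 (0.63 and 0.46; lowest -1.14), the hydrolase Sb07g019240.1 (0.11; lowest -1.65), the DNAJ protein Sb10g026860.1 (0.46 and 0.26; lowest -0.46) and the pentatricopeptide protein Sb01g043390.1 (0.12 and 0.10; lowest -0.95). The lowest values were those without replicate 1, and without replicate 2 for the caleosin. The polygalacturonase Sb09g030140.1 turned negative with normexp (-0.11) and without replicate 1 (-0.21; highest 0.53). None of these 8 was called in these fits. Promoter motif shares were not run, and normexp used the median signal. Where control was below background, only bounds are known.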
